A study of Mus musculus with 9 samples.

Results

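The IFITM genes encode small interferon-induced transmembrane proteins, and 4 of them, Ifitm1, Ifitm2, Ifitm3 and Ifitm6, are described here across 9 libraries of mouse conventional type 2 dendritic cells (cDC2s). The members were taken by gene symbol, and all 4 were found among the 40879 symbols of the files and among the 13251 genes that passed the filter on low counts. They were chosen with the results of these data known, because Ifitm1 was lower with interferon alpha (IFNa) and higher in A20iKO cells, unlike most interferon genes. Their levels and differences between groups are therefore given as a description, without a test.

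IFITM proteins sit in the plasma membrane and in endosomes, where they hinder the fusion of enveloped viruses with the cell. Ifitm3 acts mainly in endosomes and lysosomes, Ifitm2 in endosomes and Ifitm1 mainly at the cell surface, while Ifitm6 is a less studied mouse member. Type I interferon signals through the receptor chains Ifnar1 and Ifnar2 to the transcription factor complex ISGF3, which binds interferon-stimulated response elements (ISREs) in the promoters of its target genes.

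Cultures were grown from mouse bone marrow with 100 ng/ml of the growth factor Flt3L for 9 days, and cDC2s were then sorted by flow cytometry. The 3 groups had 3 libraries each: WT (wild type), WT+IFNa (wild type with IFNa added on day 5) and A20iKO (genotype A20fl/fl x CD11ccre, a floxed A20 gene with a Cre recombinase driven by CD11c, a gene of dendritic and other myeloid cells). The sources used here give no dose of IFNa and neither the strain nor the age of the mice. The treatment field names IFNa for every library, so groups were taken from the titles, and that A20iKO cultures received no IFNa rests on those titles. IFNa was present during culture, before the sort. In these bulk libraries, fewer cells of a type and less RNA per cell cannot be told apart. The design text gives 3 mice per group, but whether 1 library holds 1 mouse is not stated, so n below counts libraries and the spread may be partly technical.

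Total counts ran from 6900598 to 10552756 per library. For Tnfaip3, the gene encoding A20, the WT libraries had 232, 51 and 42 counts, WT+IFNa 73, 84 and 74, and A20iKO 285, 476 and 377, the highest of the groups. The deleted exons are not stated, and a 3' tag outside the deleted part checks nothing about the deletion. All 11 cDC2 and dendritic markers had counts in every group, with summed levels of 13972 to 17974 CPM (counts scaled to a common library total) in WT, 10006 to 12112 in WT+IFNa and 7108 to 8268 in A20iKO. The cDC2 lectin gene Cd209a stood at 331 ± 64.1 CPM in WT, 114 ± 19.5 in WT+IFNa and 11 ± 4.33 in A20iKO (SD, n = 3), and Sirpa, a surface receptor gene of cDC2s, at 170 ± 39.6, 198 ± 2.34 and 456 ± 32.5 CPM. Of these markers, 9 were called lower and 1 higher in A20iKO than in WT, where 4.91% of all genes were called lower and 5.77% higher. With IFNa, 3 were called lower and none higher than in WT (0.702% and 2.40% of all genes). The class II genes H2-Ab1 and Cd74 made up most of the sums. The 12 stromal markers, such as Col1a1, summed to 3993 CPM in WT replicate 2, 4411 in WT+IFNa replicate 3 and 4095 in A20iKO replicate 1. The remaining 6 libraries ranged from 419 to 2197 CPM. Summed markers of natural killer and T cells were at 0.134 to 7.06 CPM over all libraries. Those of B cells summed to 8.63 to 31.3 CPM in WT, 5.99 to 19.5 in WT+IFNa and 34.6 to 60.6 in A20iKO. Plasmacytoid markers summed to 539 to 679 CPM in WT, 592 to 609 in WT+IFNa and 700 to 860 in A20iKO. They moved both ways. Of the 6 tested, 4 were called higher and 1 lower in A20iKO than in WT (5.77% and 4.91% of all genes). Siglech stood at 242 ± 29.4, 159 ± 28.3 and 63 ± 13.6 CPM in WT, WT+IFNa and A20iKO. Tcf4 stood at 312 ± 48.8, 394 ± 17.4 and 529 ± 25.4 CPM. The cDC1 markers summed to 377 to 436 CPM in WT, 197 to 229 in WT+IFNa and 51.9 to 83.2 in A20iKO.

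The promoter windows of the 4 genes are shown because they differ in the letters of the element through which type I interferon acts. Each runs from 250 bases before to 50 after a RefSeq start, 5′ to 3′ on the gene's strand, with matches to the ISRE letters in capitals (GAAA, any 2 bases, then GAAA again). The sequences are RefSeq's for GRCm38.p6, another build than the GRCm39 named for the counts. The windows lie at chr7:141010695-141010994 (minus strand) for Ifitm3, chr7:140955912-140956211 (minus) for Ifitm2, chr7:140967826-140968125 (plus) for Ifitm1 and chr7:141016843-141017142 (minus) for Ifitm6. The table held 1 window for each of the 4 members.
Ifitm3: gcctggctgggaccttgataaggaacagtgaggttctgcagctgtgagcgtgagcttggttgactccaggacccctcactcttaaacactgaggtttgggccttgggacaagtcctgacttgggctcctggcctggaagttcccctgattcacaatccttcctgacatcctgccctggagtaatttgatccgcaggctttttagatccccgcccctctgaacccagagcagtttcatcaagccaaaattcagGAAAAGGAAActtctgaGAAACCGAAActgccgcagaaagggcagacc
Ifitm2: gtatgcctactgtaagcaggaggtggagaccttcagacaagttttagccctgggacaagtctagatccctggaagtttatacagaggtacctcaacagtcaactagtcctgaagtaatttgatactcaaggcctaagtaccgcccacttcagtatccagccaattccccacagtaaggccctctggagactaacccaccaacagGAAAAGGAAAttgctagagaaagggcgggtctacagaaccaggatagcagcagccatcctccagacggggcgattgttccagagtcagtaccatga
Ifitm1: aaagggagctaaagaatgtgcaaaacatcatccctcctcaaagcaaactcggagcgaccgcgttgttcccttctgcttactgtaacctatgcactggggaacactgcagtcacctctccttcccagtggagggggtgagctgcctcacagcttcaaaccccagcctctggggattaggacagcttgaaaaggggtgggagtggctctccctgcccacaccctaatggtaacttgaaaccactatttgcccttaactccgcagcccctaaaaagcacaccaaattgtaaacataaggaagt
Ifitm6: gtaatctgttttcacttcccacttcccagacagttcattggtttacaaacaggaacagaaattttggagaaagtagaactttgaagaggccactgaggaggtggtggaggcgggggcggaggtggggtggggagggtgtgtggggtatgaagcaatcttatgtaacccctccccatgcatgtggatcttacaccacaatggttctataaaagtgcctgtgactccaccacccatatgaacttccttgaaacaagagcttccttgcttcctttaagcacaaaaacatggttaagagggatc

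The Ifitm3 window held 2 ISRE matches, at bases 3 to 12 and 20 to 29 after the start. Ifitm2 held 1, at bases -46 to -37. The Ifitm1 and Ifitm6 windows held no match on either strand. Among all 32851 promoter windows of this length in the table, 3.44% held the letters, as did 10 of the 16 windows of the canonical antiviral genes listed below. The letters of the gamma-activated site (GAS) bound by STAT dimers, TTC and GAA with any 3 bases between, were found in the windows of Ifitm3, where they overlap the second ISRE match, and of Ifitm6, and in 8.3% of all windows. The consensus of the NF-kB site (the kappaB motif) was in none of the 4 windows and in 4.51% of all. A match is a description of letters. No match says only that these letters are not in this window, and further annotated starts of Ifitm1 and Ifitm2 lie outside these windows. The motifs were chosen with the expression values known.

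**Figure D1:**
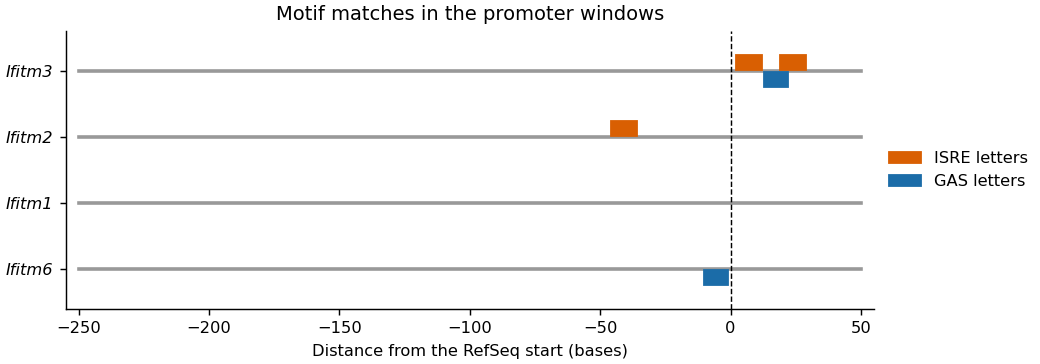
Matches to the ISRE and GAS letters in the promoter windows of the 4 Ifitm genes, by distance in bases from the RefSeq start (dashed line); each grey line is 1 window of 300 bases. Ifitm3 carries 2 ISRE matches, Ifitm2 carries 1, and Ifitm1 and Ifitm6 carry none.

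Levels below are CPM scaled by TMM factors, which correct for differences in library make-up. This kit yields reads from transcript 3' ends only, so a longer transcript gives no more reads, and different genes were compared without correction for length. Ifitm3 was the most abundant member in every library and ranked 65 of 13251 genes in WT by mean level, 14 in WT+IFNa and 34 in A20iKO. In WT the order was Ifitm3, Ifitm2, Ifitm1 and Ifitm6. In WT+IFNa Ifitm6 stood above Ifitm1, and in A20iKO Ifitm1 stood above Ifitm2. Neighbours in each of these orders did not overlap between libraries of the group.

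Ifitm3, the endosomal member, stood at 1270, 1126 and 1394 CPM in WT replicates 1 to 3, at 3691, 3538 and 3449 in WT+IFNa and at 1627, 1812 and 1727 in A20iKO. The groups did not overlap, with WT+IFNa highest and WT lowest. Ifitm3 was 2.82-fold higher in WT+IFNa than in WT (log2 fold change 1.49, SE 0.111). In A20iKO it was 1.36-fold higher than in WT (log2 0.45, SE 0.109), and it was 2.07-fold lower than in WT+IFNa.

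Ifitm1, the member at the cell surface, stood at 90.3, 113 and 109 CPM in WT, at 45.4, 46.5 and 57.4 in WT+IFNa and at 297, 314 and 368 in A20iKO. WT+IFNa was lowest and A20iKO highest, and no library of 1 group reached another group. Ifitm1 was 2.09-fold lower in WT+IFNa than in WT (log2 fold change -1.07, SE 0.17) and 3.13-fold higher in A20iKO than in WT (log2 1.65, SE 0.17). Between A20iKO and WT+IFNa the difference was 6.56-fold.

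Ifitm2, the second endosomal member, stood at 323, 304 and 327 CPM in WT, at 260, 237 and 191 in WT+IFNa and at 152, 207 and 230 in A20iKO. WT was highest and did not overlap the other groups, which overlapped each other. The log2 fold change against WT was -0.47 (SE 0.177) in WT+IFNa and -0.69 (SE 0.177) in A20iKO. The lowest Ifitm2 library of WT+IFNa was replicate 3 and that of A20iKO replicate 1, each the library of its group with the highest stromal sum. With the 3 libraries of highest stromal sum left out, these differences were -0.38 and -0.57.

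Ifitm6 was the least abundant member in WT and A20iKO. It stood at 45.7, 26.6 and 53.5 CPM in WT, at 76.5, 68.6 and 75.9 in WT+IFNa and at 19.2, 25 and 38.1 in A20iKO. WT+IFNa was above both other groups, and WT and A20iKO overlapped. The log2 fold change was 0.81 (SE 0.3) in WT+IFNa against WT and -0.61 (SE 0.302) in A20iKO against WT. Its lowest WT and A20iKO libraries were again those of high stromal sum. Without the 3 libraries the values were 0.55 and -0.65.

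**Figure D2:**
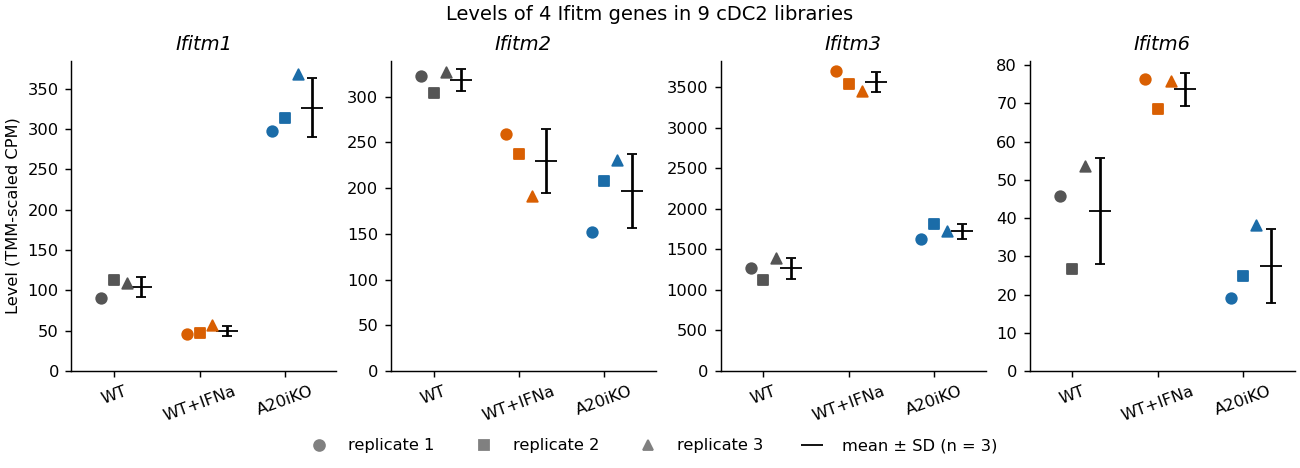
Level in TMM-scaled CPM (y axis, from 0) of Ifitm1, Ifitm2, Ifitm3 and Ifitm6 in each library, by group; marker shapes are replicate numbers and black bars are means ± SD of 3 libraries. Ifitm3 and Ifitm6 are highest in WT+IFNa, Ifitm1 is highest in A20iKO and lowest in WT+IFNa, and Ifitm2 is highest in WT.

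All 4 members had no overlap between WT+IFNa and WT, as did 18.2% of all genes tested. Of the 4, 2 were higher and 2 lower, directions that 9.77% and 8.45% of all genes took without overlap. Between A20iKO and WT it was 3 of 4 (28.0% of all genes), with Ifitm1 and Ifitm3 higher (15.4%) and Ifitm2 lower (12.6%). Between A20iKO and WT+IFNa it was 3 of 4 (24.6%), with Ifitm1 higher and Ifitm3 and Ifitm6 lower (12.3% each way). Since the members were chosen on these contrasts, nothing is read from these counts.

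The 4 members together summed to 1727 ± 157 CPM in WT, 3912 ± 151 in WT+IFNa and 2272 ± 154 in A20iKO. Ifitm3 made up 73.1% ± 1.18 of their counts in WT, 91% ± 0.387 in WT+IFNa and 75.9% ± 2.44 in A20iKO. The share of Ifitm1 was 6.07% ± 1.01 in WT, 1.28% ± 0.214 in WT+IFNa and 14.4% ± 1.13 in A20iKO. Ifitm2 made up 18.5% ± 1.04, 5.85% ± 0.69 and 8.59% ± 1.26, and Ifitm6 2.39% ± 0.612, 1.88% ± 0.125 and 1.2% ± 0.368, in the same order of groups. The ratio of Ifitm3 to Ifitm1 counts, taken within each library and so free of scaling, ran from 9.98 to 14.1 in WT, from 60.1 to 81.2 in WT+IFNa and from 4.7 to 5.77 in A20iKO. The A20iKO libraries thus held a summed IFITM level between the other groups, but with the largest Ifitm1 share.

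**Figure D3:**
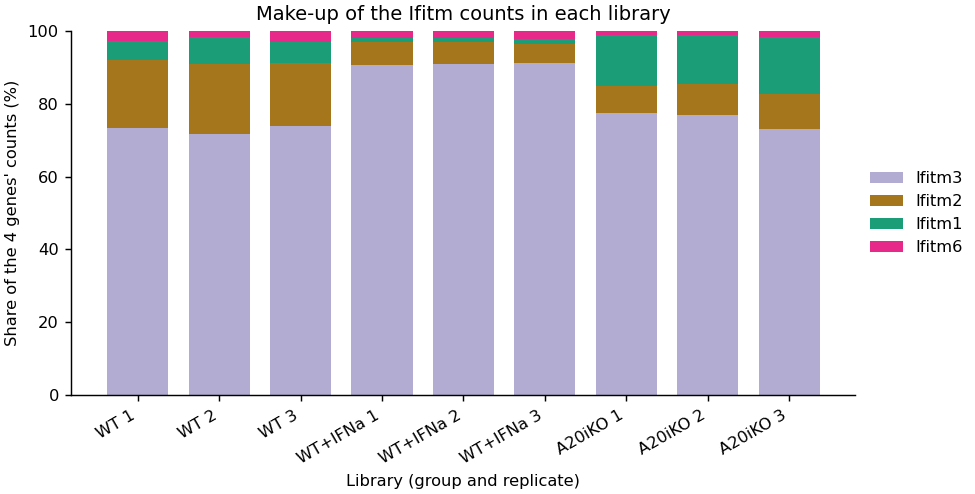
Share in percent of the summed counts of the 4 genes (y axis) taken by each, in every library (x axis, group and replicate). Ifitm3 takes 90.6% to 91.4% in WT+IFNa, and Ifitm1 takes 13.3% to 15.6% in A20iKO.

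The 3' end of Ifitm3 shares some sequence with Ifitm1, and the sources used here do not state how reads matching several genes were counted. Among stretches of 50 bases in the last 400 bases of the GENCODE transcripts (GRCm38), 4.27% of those of Ifitm3 also occurred in an Ifitm1 transcript. The longest stretch shared was 64 bases. None of the 50-base stretches of Ifitm1, Ifitm2 or Ifitm6 occurred in another family member. Ifitm3 counts were 60.1 to 81.2 times those of Ifitm1 in WT+IFNa, so a small share of Ifitm3 reads counted to Ifitm1 would weigh heavily on the level of Ifitm1. How many reads were shared or moved between them was not tested, and the Ifitm1 level is uncertain to an unknown extent.

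Among the other Ifitm genes, Ifitm5, known for its role in bone, stood at 9.02, 2.41 and 7.01 CPM in WT, 3.27, 0.116 and 2.67 in WT+IFNa and 0.526, 1.02 and 0 in A20iKO. Ifitm10 held 0 to 58 counts per library and Ifitm7 0 to 8. A count of 0 allows a level of up to 3 counts, which is 0.294 to 0.446 CPM depending on the library and covers counting error only. Of 10 listed relatives that share the CD225 domain, including these 3, 4 passed the filter. By edgeR none was called in any comparison. The counts at an unadjusted p under 0.05 were 0 in WT+IFNa vs WT, 2 in A20iKO vs WT (Ifitm5 and Ifitm10) and 0 in A20iKO vs WT+IFNa. The share of all genes at that threshold is not given, so nothing is read from these counts. The medians of their log2 fold changes were -0.07, 0.94 and 0.93, where all genes tested had -0.02, -0.01 and 0.02. DESeq2 called 1, Ifitm5, lower in A20iKO than in WT, and limma-voom 0.

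The type I interferon pathway was described from a list of 11 genes, all of which passed the filter. With IFNa, 6 of 11 rose and none fell against WT, where 3.10% of all genes were called, 2.40% higher and 0.702% lower (edgeR, Benjamini-Hochberg adjusted p under 0.05). Irf7, the transcription factor that amplifies the response, rose from 9.07 ± 2.52 to 476 ± 56.5 CPM. Stat2, Irf9, Irf1 and Usp18 rose as well. The list had a median log2 fold change of 1.51, and all genes tested had -0.02. In A20iKO against WT, 4 of 11 rose and none fell (10.7% of all genes were called, 5.77% higher and 4.91% lower). Among them were Irf7 (107 ± 24 CPM), Irf1 (191 ± 18.1 against 88 ± 4.78) and Usp18, which removes ISG15 from proteins and dampens receptor signalling (48.7 ± 14.2 against 6.38 ± 4.95). Stat2 had 53.4 ± 6.55 CPM in A20iKO against 36.9 ± 2.53 in WT and Irf9 140 ± 33.2 against 101 ± 25.3, and neither passed the test. The median of the list was 0.61. With IFNa, Stat2 and Irf9 reached 149 ± 43.5 and 233 ± 32.8 CPM.

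Between A20iKO and WT+IFNa, Stat2 and Irf7 were lower in A20iKO and the receptor chain gene Ifnar1 was higher, with 5.46% of all genes called, 2.05% higher and 3.41% lower. Ifnar1 stood at 92.9 ± 10.1 CPM in A20iKO and 52 ± 6.43 in WT+IFNa (edgeR adjusted p = 0.0212). That call was lost without WT+IFNa replicate 1 or 2 or A20iKO replicate 2 or 3 (adjusted p = 0.0822, 0.0641, 0.108 and 0.0969). The median of the list was -0.63. The count of 3 called genes became 6 without WT replicate 1 and 5 without WT replicate 2.

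All 19 canonical antiviral genes present in the files (the list held 20 symbols) rose with IFNa, where 2.40% of all genes were called higher. Their median log2 fold change was 5.18. In A20iKO, 16 of 19 rose against WT, at a median of 3.31, and none fell (5.77% of all genes were called higher and 4.91% lower). The other 3 were Mx1 (35.1 ± 12.1 against 23.9 ± 8.91 CPM), Mx2 and Ifih1, which did not pass. Against WT+IFNa, 12 of 19 were lower in A20iKO and none higher (3.41% and 2.05% of all genes), at a median of -1.82. Without WT+IFNa replicate 2 the count was 7. The medians over all genes were -0.02, -0.01 and 0.02 in the same order. For example Ifit3, an antiviral RNA-binding protein gene, stood at 1.59 ± 1.09 CPM in WT, 466 ± 41.3 in WT+IFNa and 69.4 ± 8.88 in A20iKO. Rsad2, which encodes viperin, stood at 6.22 ± 1.87, 308 ± 13.2 and 66.1 ± 4 CPM. Both rose in each comparison with WT. Ifih1, an RNA sensor gene, lost its call with IFNa without WT+IFNa replicate 2 (edgeR adjusted p = 0.0936). Ifitm3 had the same order of groups as Ifit3 and Rsad2, with A20iKO between WT and WT+IFNa, whereas Ifitm1, Ifitm2 and Ifitm6 did not.

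**Figure D4:**
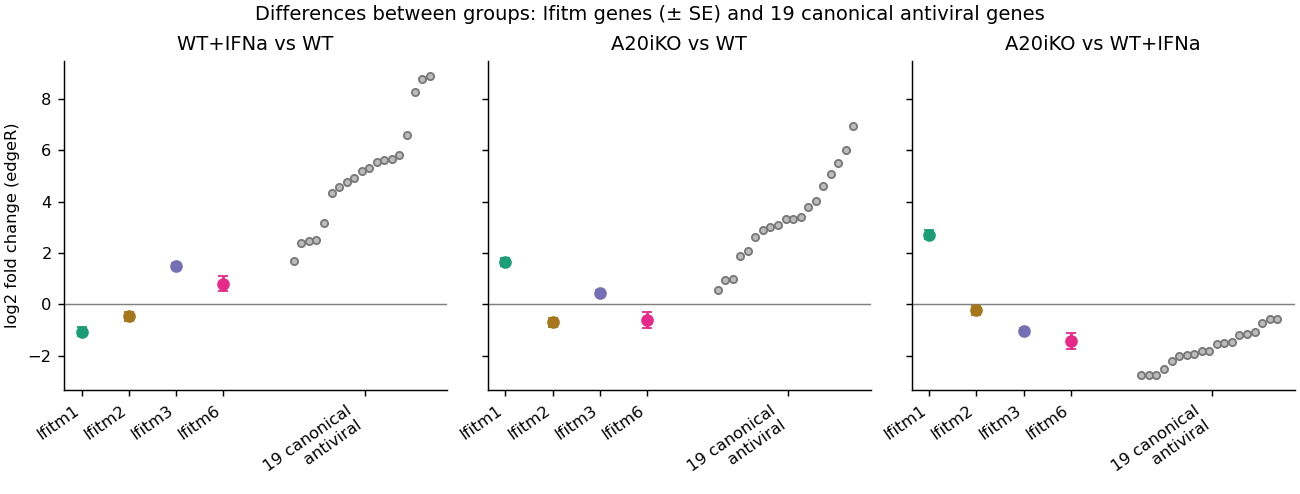
Log2 fold change (y axis) in the 3 comparisons for the 4 Ifitm genes (coloured points ± SE) and for the 19 canonical antiviral genes (grey points in order of value). Against WT all grey points lie above 0 while the Ifitm genes lie on both sides, and in A20iKO vs WT+IFNa the grey points lie below 0 while Ifitm1 is at 2.71.

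Other factors that meet viruses at membranes were described from a list of 9 genes, of which 8 passed the filter. With IFNa, 2 of 8 rose and none fell (3.10% of all genes were called). Ly6e, a surface protein that blocks coronavirus fusion, rose from 499 ± 57.9 to 2102 ± 146 CPM and Bst2, the tetherin gene that holds budding virions at the cell surface, from 70.3 ± 19.7 to 286 ± 67.6 CPM. In A20iKO, 3 of 8 rose against WT and none fell (10.7% of all genes were called). Ly6e reached 1762 ± 294 CPM, Bst2 163 ± 48.9 and Serinc3, which is taken into virions and lowers their infectivity, 825 ± 161 against 416 ± 63.3. The Bst2 call in A20iKO was lost without WT replicate 3 or A20iKO replicate 3 (edgeR adjusted p = 0.0545 and 0.0516). The medians of the list were 0.37 with IFNa, 0.76 in A20iKO against WT and -0.20 in A20iKO vs WT+IFNa. Serinc3 was also the 1 gene of 8 called in A20iKO vs WT+IFNa (5.46% of all genes), higher in A20iKO, and lost that call without WT replicate 3, WT+IFNa replicate 2 or 3, or A20iKO replicate 2 or 3 (edgeR adjusted p = 0.0502, 0.102, 0.0996, 0.166 and 0.153).

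Partners and modifiers of IFITM proteins were listed as 13 genes, and 10 passed the filter. With IFNa none was called by edgeR, and DESeq2 and limma-voom also called 0. At an unadjusted p under 0.05 there were 2 (Zdhhc20 and Nedd4, both lower), from which nothing is read, as the share of all genes is not given. In A20iKO 1 of 10 rose against WT and none fell, close to the 10.7% of all genes called there, and 1 of 10 rose against WT+IFNa, where 5.46% of all genes were called. Both calls were of the ubiquitin ligase gene Nedd4, whose product marks Ifitm3 for breakdown. Nedd4 stood at 109 ± 23.8 CPM in WT, 78.9 ± 12.3 in WT+IFNa and 186 ± 16.7 in A20iKO (edgeR adjusted p = 0.0218 against WT and 0.00215 against WT+IFNa). The call against WT was lost without WT replicate 2, A20iKO replicate 2 or A20iKO replicate 3 (adjusted p = 0.0621, 0.0921 and 0.0821), and the call against WT+IFNa was kept in each of the 9 fits that left out 1 library. Zdhhc20, an enzyme that attaches palmitate to Ifitm3, had 116 ± 11.1, 76.9 ± 20.7 and 71 ± 22.1 CPM in WT, WT+IFNa and A20iKO and did not pass. Zmpste24, a protease that works with IFITM proteins in limiting virus entry, had 40 ± 6.32, 40.2 ± 15.4 and 43.2 ± 7.12 CPM and did not pass either. The list's medians were -0.21, -0.27 and -0.11 in WT+IFNa vs WT, A20iKO vs WT and A20iKO vs WT+IFNa. The tetraspanin gene Cd81, a partner of Ifitm1, held 0 to 3 counts per library.

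In the RefSeq order the members lie on chromosome 7 in a run of Ifitm5, Ifitm2, Ifitm1, Ifitm3 and Ifitm6. Of the 3 coding neighbours on each side (Cox8b, Nlrp6 and Pgghg before, and B4galnt4, Pkp3 and Sigirr after), 4 passed the filter. Pkp3, a desmosome gene, rose with IFNa from 24.5 ± 1.13 to 61.9 ± 10.4 CPM (edgeR adjusted p = 0.00526). In A20iKO it stood at 44.7 ± 7.5 CPM (edgeR adjusted p = 0.0301 against WT), a call lost without WT replicate 1, 2 or 3 (adjusted p = 0.0833, 0.0607 and 0.0731), WT+IFNa replicate 3 (0.0509) or A20iKO replicate 1 or 2 (0.0867 and 0.133). Pgghg, B4galnt4 and Sigirr did not pass in any comparison, at mean levels of 2.03 to 11.2 CPM. Pkp3 thus had the order of groups of Ifitm3, not that of Ifitm1.

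The pattern of Ifitm1, lower with IFNa and higher in A20iKO, was shared by 5 other genes among the 13251 tested, counted as past the threshold in both comparisons with WT. The opposite pattern, higher with IFNa and lower in A20iKO, was met by 5 genes. These comparisons share the WT libraries. Lyz2, the lysozyme gene of macrophages and other myeloid cells, stood at 364 ± 48.2 CPM in WT, 129 ± 17.6 in WT+IFNa and 699 ± 88.7 in A20iKO (edgeR adjusted p = 0.000103 and 0.00178 against WT). The paired tetraspan genes Tmem176a and Tmem176b stood at 185 ± 14.9, 98 ± 15.7 and 374 ± 36 CPM and at 416 ± 87.4, 228 ± 13.8 and 685 ± 15 CPM. Anpep, which encodes the aminopeptidase CD13, stood at 39.4 ± 6.25, 12.3 ± 0.924 and 78.8 ± 7.48 CPM. H2-DMb2, a chain of the class II peptide editor, stood at 109 ± 6.24, 61.4 ± 11.2 and 204 ± 29.7 CPM. Anpep lost its A20iKO call without WT replicate 3 or A20iKO replicate 2 (edgeR adjusted p = 0.0504 and 0.0679). H2-DMb2 lost its IFNa call without WT replicate 1 or 3 or WT+IFNa replicate 2 or 3 (edgeR adjusted p = 0.0634, 0.0547, 0.122 and 0.0952). For Lyz2, Tmem176a and Tmem176b both calls were kept in each of the 20 other settings tried.

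**Figure D5:**
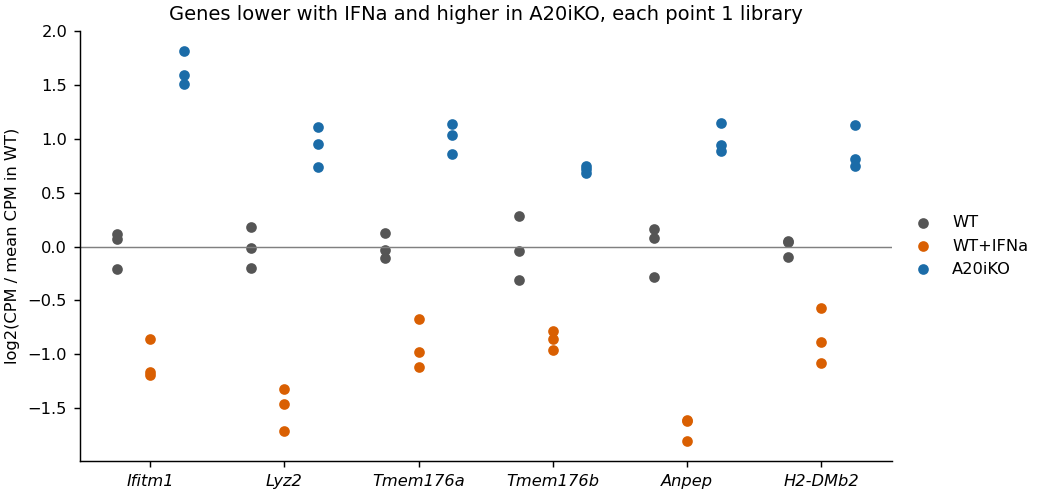
Level of Ifitm1 and the 5 other genes with its pattern, as log2 of CPM over the mean CPM in WT (y axis), each point 1 library. The WT+IFNa libraries lie below and the A20iKO libraries above the WT libraries for every gene shown.

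By likeness over the 9 libraries (Pearson r of log2(CPM + 1) among 8180 other genes of at least 10 CPM on average), the genes nearest to Ifitm1 were Tmem176a (r = 0.975), Adgrl1, Gkap1, Socs3 (0.972) and Galk1 (0.97). Socs3, an inhibitor of cytokine signalling, stood at 26.2 ± 5.23, 14.3 ± 2.94 and 93.6 ± 9.49 CPM in WT, WT+IFNa and A20iKO. Nearest to Ifitm3 were the chemokine gene Ccl6 (r = 0.995), the noncoding Zfas1, the cyclin gene Ccnd2, the Schlafen gene Slfn5 and Phf11b (0.981). Ccnd2, for instance, stood at 212 ± 29.5, 926 ± 133 and 301 ± 39.4 CPM. Nearest to Ifitm2 were Ints6l (r = 0.972), Xbp1, Scpep1, Niban1 and H2-DMa (0.964), which were highest in WT like Ifitm2 itself. Nearest to Ifitm6 were the neutrophil granule gene Ngp (r = 0.97), Stk38, Rsrp1, Rabepk and Padi2 (0.941). The 9 points fall into 3 groups and share library depth, so these r values largely describe the order of the groups. Among the members themselves r was 0.7 between Ifitm3 and Ifitm6, -0.83 between Ifitm1 and Ifitm6 and -0.58 between Ifitm1 and Ifitm3.

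Ifitm1 is known to be expressed by progenitors and basophils too, and summed markers of both were higher in A20iKO than in WT. With IFNa, where Ifitm1 was lower, the progenitor sums overlapped those of WT and the basophil sums were higher. The 10 progenitor markers, all with counts in each group, summed to 62.7 to 121 CPM in WT, 83.8 to 116 in WT+IFNa and 339 to 398 in A20iKO. Of the 8 tested, 4 rose in A20iKO against WT and none fell, where 5.77% of all genes were called higher. The sums of the 8 basophil and mast cell markers, such as Mcpt8, were 39.7 to 73.7 CPM in WT, 115 to 196 in WT+IFNa and 203 to 226 in A20iKO. Of the 7 tested, 2 rose with IFNa (2.40% of all genes) and 3 in A20iKO against WT, and none fell. The 12 monocyte and macrophage markers, which include Lyz2, summed to 1329 to 1622, 1938 to 2494 and 2793 to 2915 CPM. They moved both ways. With IFNa, 3 were called higher and 2 lower (2.40% and 0.702% of all genes). In A20iKO against WT, 7 were called higher and 1 lower (5.77% and 4.91% of all genes). Ly6c2, a gene of inflammatory monocytes, stood at 26 ± 10.7, 679 ± 103 and 741 ± 115 CPM in WT, WT+IFNa and A20iKO, and the macrophage gene Adgre1 at 92.5 ± 28.7, 38.4 ± 13.3 and 37.1 ± 2.73. The part of these cells in the Ifitm1 level was not tested.

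Neutrophil markers were described beside Ifitm6. The 14 markers, all with counts in each group, summed to 103 to 127 CPM in WT, 340 to 398 in WT+IFNa and 327 to 466 in A20iKO. They did not move as 1, and in A20iKO against WT 5 were called higher and 2 lower (5.77% and 4.91% of all genes). The calprotectin gene S100a8 stood at 36.5 ± 3.96, 121 ± 8.54 and 5.99 ± 2.02 CPM and Ngp at 7.53 ± 5.55, 35.2 ± 8.16 and 0.667 ± 1.16 CPM, both highest in WT+IFNa and lowest in A20iKO as was Ifitm6. Ngp is also the gene nearest to Ifitm6 above, so its likeness was fixed by that choice. Early granule genes were high in A20iKO instead, with Prtn3 at 0.594 ± 0.545, 7.21 ± 3.67 and 174 ± 39 CPM and Mpo at 1.79 ± 3.11, 2.95 ± 2.05 and 65.4 ± 6.77 CPM. Also highest in A20iKO were Mmp8, at 8.6 ± 3.54, 5.5 ± 0.795 and 77.8 ± 16.5 CPM, and Csf3r, at 2.53 ± 2.43, 7.13 ± 3.31 and 36 ± 13.7 CPM. The part of neutrophils in the Ifitm6 level was not tested.

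Stromal cells also express IFITM genes. With the stromal sum as a covariate, the log2 fold change of Ifitm3 with IFNa was 1.5 and that of Ifitm1 -1.07, and in A20iKO they were 0.42 and 1.67 against WT. For Ifitm2 the covariate gave -0.48 with IFNa and -0.79 in A20iKO, and for Ifitm6 0.86 and -0.74.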

How the data were processed

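RNA of sorted cDC2s was made into 3' tag libraries (QuantSeq 3' mRNA-Seq, forward kit), per the labels' protocols. Each deposited file holds raw counts for 1 library, 1 whole number for each gene symbol. The submitters' processing notes name fastp 0.23.1, Bowtie2, STAR 2.7.10b, featureCounts 2.0.6 and GRCm39. The sources used here state neither their roles nor the annotation, strandedness or handling of multiply mapped reads.

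The filterByExpr function of edgeR (at least 10 counts in enough libraries, at least 15 in total) left 13251 of 40879 genes with 99.8% of the counts. All 9 libraries entered 1 edgeR quasi-likelihood fit (edgeR 4.0.16, R 4.3.3) with TMM scaling, group means and 6 residual degrees of freedom. Benjamini-Hochberg adjustment covered all 13251 genes, calls were made at an adjusted p under 0.05, and standard errors were derived from the F statistic. Errors of levels are SD over 3 libraries. Replicate pairs differed beyond sampling noise (chi-square per degree of freedom of at least 14.4). This cannot tell separate mice from separate preparations, and each library was counted once.

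The members and lists were chosen with earlier results of these data known. Named genes are the members, called list genes of smallest p and list genes whose role is given, the 5 genes most like each member, up to 6 genes with the pattern of Ifitm1 (all 5 besides Ifitm1), and coding neighbours by RefSeq order. DESeq2 1.42.0, limma 3.58.1 (voom), other scalings, no low-count filter, a replicate block, a stromal covariate, fits of 2 groups only, and leaving out single or strongly stromal libraries were alternatives, 20 in all.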

Additional observations from a re-analysis of the deposited data

How the results depend on the processing

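Under the 20 other settings tried, all 12 differences between groups of Ifitm1, Ifitm2, Ifitm3 and Ifitm6 had the sign given above, which their choice partly fixes. They moved by more than the SD between replicates in only 2 cases. Without the 3 libraries of high stromal level, Ifitm1 in A20iKO vs WT+IFNa was at 2.89 on the log2 scale, and with library size alone Ifitm3 with IFNa was at 1.37. Scaling by library size alone put the median over all genes at -0.15 (log2) with IFNa and at 0.12 in A20iKO vs WT+IFNa. Higher calls made up 60.9% rather than 77.4% of calls in the first and 49.4% rather than 37.5% in the second. The cause of the changes below was not tested.

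Over all genes, the 411 calls with IFNa became 700 with DESeq2 and 718 with the stromal covariate. The 723 calls of A20iKO vs WT+IFNa became 1143 and 1233, and 400 to 875 with 1 library left out (400 without WT+IFNa replicate 1, 440 without WT+IFNa replicate 2, 421 without A20iKO replicate 2 and 450 without A20iKO replicate 3). The 1416 calls of A20iKO vs WT became 919 to 1372 with 1 library left out (919 without A20iKO replicate 2 and 942 without A20iKO replicate 3). The 6 genes with the pattern of Ifitm1, itself included, became 11 with the stromal covariate.

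In A20iKO vs WT+IFNa, the 3 called receptor and ISGF3 genes became 7 without the low-count filter, with DESeq2, with limma-voom or with only the 2 groups compared, 6 with the stromal covariate, 5 without the stromal libraries and 2 to 6 with 1 library left out. The 12 canonical antiviral genes became 7 to 14 with 1 library left out. The 1 membrane factor became 2 without the filter, with DESeq2, limma-voom, the stromal covariate or without the stromal libraries, and 0 to 1 with 1 library left out. The 1 partner gene became 2 with library size alone, DESeq2 or the stromal covariate. In A20iKO vs WT, the 1 partner gene became 3 without the filter, 2 with DESeq2 or limma-voom, 4 with the stromal covariate and 0 to 1 with 1 library left out (0 without WT replicate 2 or A20iKO replicate 3), and the CD225 relatives went from 0 to 1 with DESeq2.

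The replicate numbers were not taken as pairs: the deviations of same-numbered libraries correlated at -0.42 to 0.29. With the replicate block, the 1 membrane factor of A20iKO vs WT+IFNa became 0, since Serinc3 had an edgeR adjusted p of 0.0876, Pkp3 in A20iKO vs WT had 0.0706 and H2-DMb2 with IFNa had 0.0667. No other count of a list left the range of 1.5 times under the block. Depth limits Ifitm5, Ifitm7 and Ifitm10, which held few counts.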
